A study of Mus musculus with 2 samples.

Results

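Chromosome 11 from 3.1 Mb to position 115000000 carried 944156 of the 13025343 cytosines listed in a 5-hydroxymethylcytosine (5hmC) map of mouse embryonic stem cells. It held 8.85% of the map's read counts, which sum to 176006227 over all cytosines. A read counted at 2 cytosines enters this sum at each. The region comprised every listed cytosine of chromosome 11 whose mm9 position lies between 3100001 and that bound. It was chosen by values of the same map, since chromosome 11 had stood out in reads per CG site, reads of the class coded 2CG, CH sites and the share of CGs listed on both strands. All comparisons of these measures with other chromosomes are therefore descriptions and carry no test. The map came from E14, an established mouse embryonic stem cell line, at passage 12, with 2 libraries labelled as replicates of 1 group and no second condition. Genomic DNA had been glucosylated and cut with AbaSI, an endonuclease that recognises the glucosylated form of 5hmC and cleaves the DNA nearby. Reads were assigned by the authors to single cytosines, and the deposited table gives 1 read count per cytosine for both libraries together, so that no value below has a replicate error. The lowest listed count was 2, and an unlisted cytosine may have had reads below the listing minimum.

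5hmC is made from 5-methylcytosine by the TET dioxygenases and is a step on a route by which methylation is removed. In mouse embryonic stem cells it lies mainly at CG dinucleotides. A CG reads as CG on the opposite strand too, and the cytosines of its strands can be modified independently. Cytosines followed by A, C or T (CH sites) carry far less methylation than CGs, and most methylated CH sites in these cells are CA. The number of reads at a cytosine depends on the share of DNA copies that are modified and on how many copies of the locus the cells hold. Copy number was not measured in this map, so both enter every read count below and cannot be told apart.

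The region held 884303 CG sites and 59853 CH sites over 111.9 Mb. It had 7903 listed CG sites per Mb, against 3781 on chromosome 14 to 6223 on chromosome 19 among the 17 autosomes other than 8 and 11. Mean reads per CG site were 17.1 in the region and ran from 12.5 on chromosome 3 to 15.3 on chromosome 2. The mean of chromosome 2 included its window at 98 to 99 Mb, which had by far the most reads per CG site of the comparison windows. The next highest mean was 13.7, on chromosome 17. Heavily read stretches were thus kept on the other autosomes, while the lower bound of the region left out one with 153 reads per CG site. The median was 12 reads per CG site in the region and 9 or 10 on the other autosomes. Listed sites were close together, with a median gap of 25 bp to the next, against 31 to 44 bp elsewhere. CH sites numbered 535 per Mb, against 226 to 358 per Mb on the other autosomes. Of the 601045 CG dyads with at least 1 listed strand, 47.1% were listed on both (95% exact interval 47.0 to 47.3, counting error only), against 33.7 to 38.3% elsewhere. The region thus lay above the range of the 17 autosomes in each of these densities, read levels and shares.

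The lower bound at 3.1 Mb excludes the 100 kb where the listed sequence begins. That stretch, from 3000001 to 3100000, had 1313 CG sites with 153 reads each, 4510 CH sites and 73.9% of its dyads listed on both strands. Just inside, from 3.1 to 4 Mb, CG sites averaged 18.4 reads, CH sites numbered 501 and the both-strand share was 51.6%. At the upper bound there was no step in reads of that size. The last Mb inside had 12751 CG sites with 18.0 reads each and 50.3% of dyads on both strands. The first Mb outside had 17749 CG sites with 20.3 reads each and 56.4% of dyads on both strands. Over 5 Mb on either side, listed CG sites were 9465 per Mb inside and 17551 per Mb outside, and reads per CG site 16.5 and 20.7.

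Reads per CG site followed the number of listed CG sites within the region. Over its 111 complete windows of 1 Mb, the first at 4 Mb, CG sites ran from 884 at 38 to 39 Mb through a median of 8013 to 16176 at 113 to 114 Mb. Spearman's rho between CG sites and reads per CG site was 0.94 over the 111 windows and 0.92 over windows of the other autosomes. The count of CG sites and the reads per site come from the same libraries, so this is a description of the map. The windows were therefore set beside windows of like density, the ones whose count of CG sites on the 17 other autosomes lay within 10% of their own. More reads can bring more cytosines over the listing minimum, so matching on listed CG sites may remove part of a difference in reads.

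**Figure D1:**
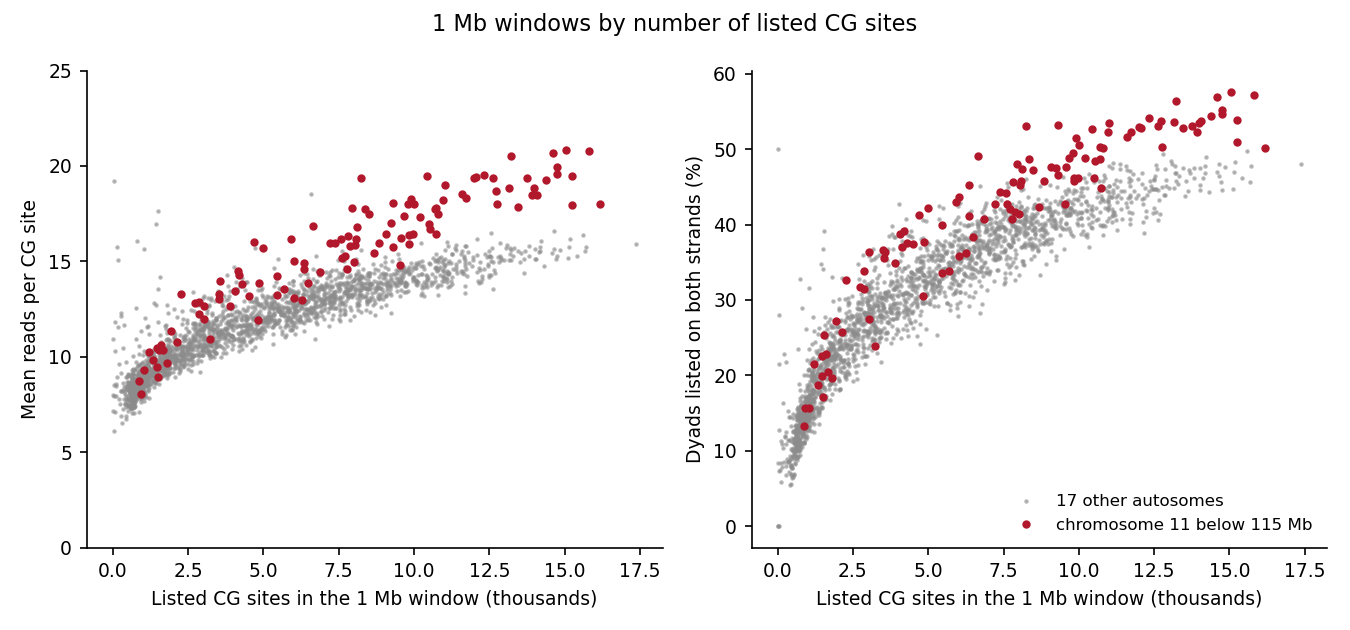
Mean reads per CG site (left) and share of CG dyads listed on both strands in percent (right) against listed CG sites in each 1 Mb window. Red points are the 111 windows of the chromosome 11 region and grey points windows of the 17 other autosomes, of which 3 lie above the left axis top of 25 reads. The red points rise above the grey band as CG sites increase and lie mostly within it in the sparse windows. An exception on the left is the window at 73 to 74 Mb, with 2259 CG sites at 13.3 reads.

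At matched CG sites, windows of the region had a median of 1.19 times the reads per CG site. The middle 50% of the ratios lay between 1.13 and 1.25, and 105 of the 111 windows were above 1. The same ratio, taken for each of the 17 autosomes against the remaining 16, had medians from 0.992 on chromosome 18 to 1.02 on chromosome 17. Of windows on those autosomes, 5.78% were at or above 95% of their own matches. In the region 84 of 111 windows (75.7%) were, and 55 were above every matched window. As the region was chosen by reads per site, this count describes how widely the higher reads were spread and tests nothing.

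The ratio was larger where listed CG sites were dense. In the 18 windows under 3000 CG sites the median ratio was 1.08, with 10.4 reads per CG site against 9.62 in the matched windows. It was 1.15 in the 28 windows from 3000 to 7000 CG sites, 1.21 in the 40 from 7000 to 11000, and 1.26 in the 25 above, where CG sites averaged 19.2 against 15.3 reads. The 6 windows below 1 all had under 7000 CG sites. They began at 37, 41, 42, 65, 92 and 111 Mb, with ratios of 0.931, 0.986, 0.978, 0.995, 0.927 and 0.983. The excess thus covered nearly the whole region and was not a few hot windows, while its size varied with density.

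**Figure D2:**
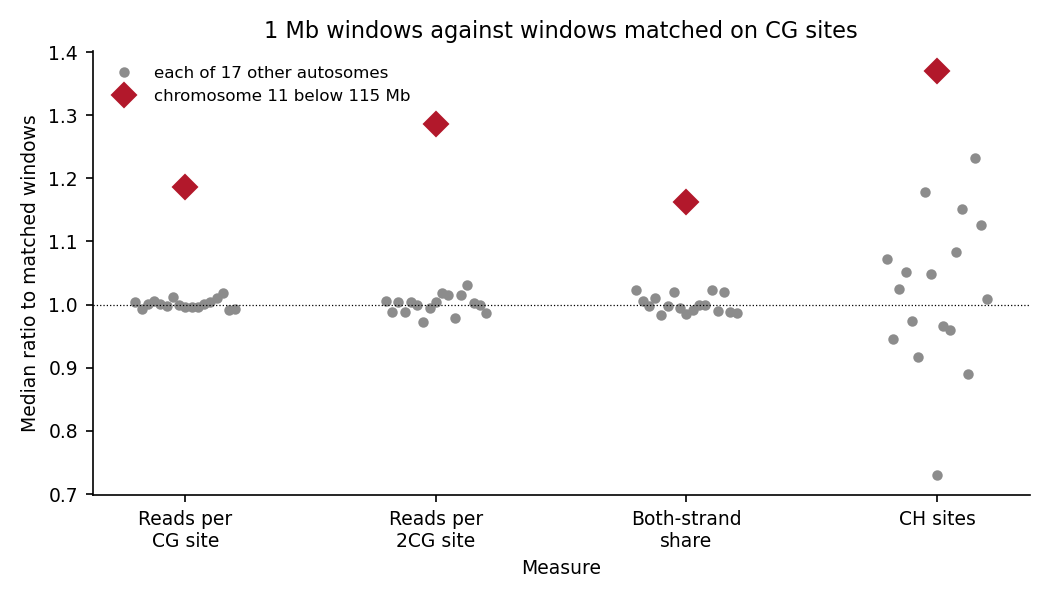
Median ratio of 1 Mb windows to windows with like numbers of CG sites on other autosomes (y axis), for 4 measures (x axis). Diamonds are the chromosome 11 region, at 1.19 for reads per CG site, 1.29 for reads per 2CG site, 1.16 for the both-strand share and 1.37 for CH sites, and grey points the 17 other autosomes, each against the remaining 16. Each diamond lies above every grey point of its measure.

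In steps of 5 Mb, all 22 complete steps were above their matches, with ratios from 1.09 at 25 to 30 Mb through a median of 1.21 to 1.33 at 5 to 10 Mb. The 3 steps with the most reads per CG site were 95 to 100 Mb with 19.4, 100 to 105 Mb with 19.2 and 75 to 80 Mb with 18.9. The 3 with the fewest were 25 to 30 Mb with 12.5, 10 to 15 Mb with 13.2 and 40 to 45 Mb with 14.3. The rich steps held 13506, 13358 and 11866 CG sites per Mb and the poor ones 2781, 2405 and 4195. High and low reads thus alternated along the chromosome with the density of sites, with no single boundary at which the ratio began or ended.

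At 1 Mb, reads per CG site ran from 8.04 to 20.9 with a median of 16.0, against a median of 11.7 on the other autosomes. The highest window was 97 to 98 Mb, with 15044 CG sites at 20.9 reads where matched windows had 15.6. It was followed by 100 to 101 Mb with 20.8, 95 to 96 Mb with 20.7, 88 to 89 Mb with 20.5 and 98 to 99 Mb with 19.96 reads per CG site. These 5 windows had ratios from 1.28 to 1.36 and lay within 13 Mb of each other. The lowest was 92 to 93 Mb, with 926 CG sites at 8.04 reads against 8.67 in its matches. Next came 38 to 39 Mb with 8.74, 37 to 38 Mb with 8.93, 15 to 16 Mb with 9.33 and 41 to 42 Mb with 9.46 reads per CG site. Their ratios ran from 0.927 to 1.06, but choosing windows by low reads favours low ratios. Over all 18 windows under 3000 CG sites the median ratio was 1.08. The largest ratio was 1.43 at 8 to 9 Mb, where 8230 CG sites averaged 19.4 reads.

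**Figure D3:**
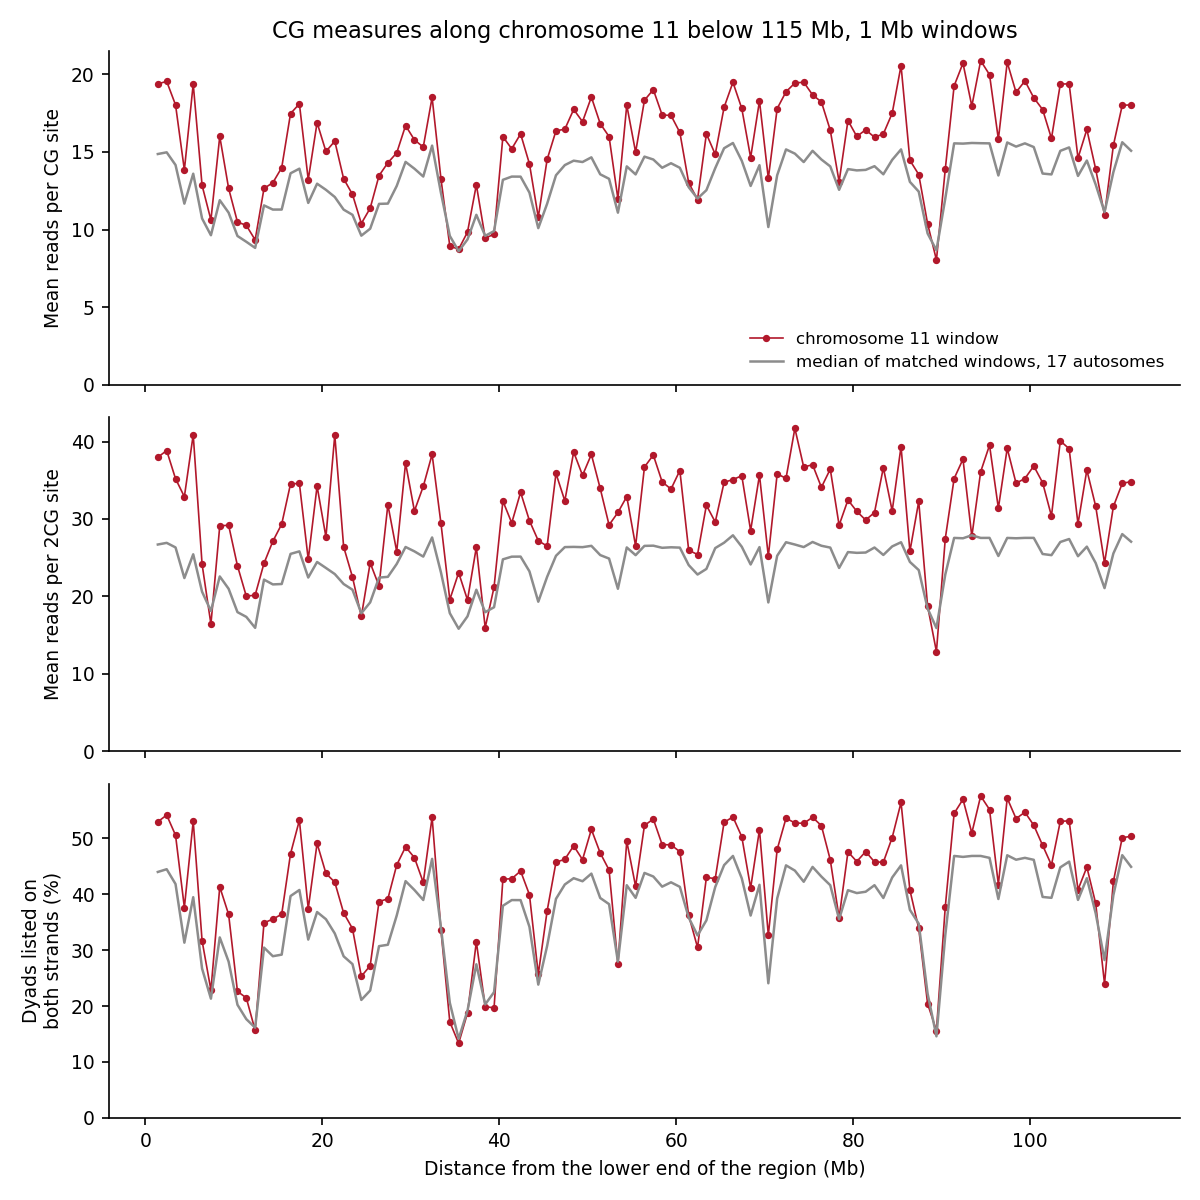
Mean reads per CG site (top), mean reads per 2CG site (middle) and share of CG dyads listed on both strands in percent (bottom) in 1 Mb windows, against distance from the lower end of the region in Mb. Red lines are the windows of the region and grey lines the median of windows matched on CG sites. In the top and middle panels the red line is above the grey one in 105 of 111 windows, and in the bottom panel in 99.

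No window of 100 kb in the region lacked a listed CG site. The 1119 windows had a median of 756 CG sites and from 37 to 49977 reads. The richest in CG sites began at 97300001 with 2138, followed by 77600001 with 2070, 113600001 with 1988, 76100001 with 1984 and 107200001 with 1979. The window at 76100001 also had the most reads, 49977, with 24.7 per CG site and 62.6% of dyads on both strands. It was followed by 95400001 with 48262, 77600001 with 47787, 107200001 with 46494 and 4100001 with 45103 reads. The sparsest began at 71000001 with 8 CG sites and 37 reads. The other four sparse windows lay in pairs near the poorest 1 Mb windows, at 38900001 and 92000001 with 45 CG sites each and at 38800001 and 92500001 with 54 each.

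Sites of the class coded 2CG had the most reads of any class. The code is not explained in the sources used here, but 86.4% of the 30165 plus-strand 2CG sites had a minus-strand 2CG site 21 to 25 bp away, and 87.3% of those pairs had equal counts. Pairs at offsets of 22 and 23 bp were found for 34.4% and 34.0% of the plus-strand sites. Counts were equal in 92.2% and 97.6% of the pairs at these offsets, but in 62.6% at 21 bp, 46.2% at 24 bp and 9.18% at 25 bp. Most pairs thus carried the same count at both cytosines, and their reads may be counted at each. The region had 60424 such sites with a mean of 33.6 reads, against 23.3 to 25.1 on the other autosomes. At the same time 2CG sites were 6.83% of its CG sites, below all 17 other autosomes (7.98 to 8.63%).

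Reads were higher from the 25th percentile upwards in each CG class, and not in its upper tail alone. At the 10th percentile 1CG sites had 4 reads against 3 and 2CG sites 6 against 5, while CGCH sites had 4 in both places. The median 2CG site had 22 reads in the region and 16 on the other autosomes, the 90th percentile 70 and 50, and the 99th 207 and 149. For 1CG sites the medians were 11 and 8 and the 99th percentiles 63 and 45. For CGCH sites the medians were 12 and 10 and the 99th percentiles 72 and 51. CH classes differed less: the median was 5 reads for 1CH and for 2CH sites, in the region and elsewhere. Their 75th percentiles were 8 reads against 9 and their 90th 15 in both places, and the 99th were 43 against 40 for 1CH and 42 against 36 for 2CH sites.

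At matched CG sites, reads per 2CG site had a median ratio of 1.29, and the medians of the other autosomes ran from 0.973 to 1.03. Of windows elsewhere 5.36% were at or above 95% of their matches, and in the region 85 of 111 (76.6%) were. Again 105 windows were above 1. The lowest ratio, 0.809, was at 92 to 93 Mb and the highest, 1.78, at 24 to 25 Mb, where 327 sites averaged 40.8 reads against 22.9. By density the ratio went from 1.15 in windows under 3000 CG sites to 1.37 in those with at least 11000. By 5 Mb steps reads per 2CG site ran from 22.7 at 25 to 30 Mb to 37.0 at 75 to 80 Mb.

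The both-strand share ran with reads per CG site, with a rho of 0.99 over the 111 windows and 0.97 elsewhere. A dyad counts as listed on both strands only if each cytosine reaches the listing minimum, so the share rises with reads by construction. It ran from 13.3% at 38 to 39 Mb through a median of 45.2% to 57.6% at 97 to 98 Mb, against a median of 30.7% on the other autosomes. At matched CG sites the median ratio was 1.16, with 99 of 111 windows above 1 and medians of 0.984 to 1.02 for the other autosomes. Of windows elsewhere 5.64% were at or above 95% of their matches, and in the region 71 of 111 (64.0%) were. The highest ratio was at 73 to 74 Mb, with 32.6% against 24.1%, and the lowest at 37 to 38 Mb, with 17.2% against 20.6%.

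Matching on reads per CG site as well as on CG sites brought the share close to that of other chromosomes. Such matches existed for 65 windows, and the other 46 had fewer than 5. The matched windows had at most 10801 CG sites and 17.5 reads per CG site, so that none of the densest windows, where the median ratio of reads was largest, was among them. In the 65 windows the median ratio was 1.03, with 51 above 1, and the other autosomes had medians from 0.986 to 1.02. The same 65 windows matched on CG sites alone gave 1.13. With both matches narrowed to within 5% the median was 0.989. In the sparser, less-read windows that could be matched, the share was thus close to that of the matches. Whether it lay above or below them changed with the width of the match, and a narrower match can also leave fewer windows to compare.

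Dyad by dyad, the region was also near the other autosomes up to 39 reads. Among dyads with 10 to 14 reads over both strands, 28.718% were listed on both in the region, against 27.926 to 28.675% elsewhere. With 15 to 19 reads the share was 49.1% against 49.2 to 50.2%, and with 30 to 39 reads 80.9% against 79.9 to 81.4%. In the 8 read classes up to 39 reads the difference from the median autosome was at most 0.65 points. The region was nevertheless above all 17 autosomes in the 4 classes up to 14 reads, below all 17 at 15 to 19 reads, and within their range in the other three.

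Among dyads with more reads the region differed. With 75 to 99 reads 93.2% were listed on both strands, against 80.1 to 86.6% elsewhere. With 100 or more reads the share was 87.6% (95% exact interval 87.0 to 88.2) and 61.7 to 71.6% elsewhere. Dyads of this size were 1.96% of all dyads in the region and 0.549 to 0.755% on the other autosomes. A smaller share of them held a 2CG site, 40.8% against 59.1 to 64.8%. Among those with a 2CG site 79.5% were listed on both strands against 55.2 to 64.9%, and among those without 93.2% against 73.1 to 83.0%. Dyads of this size were more numerous in the region with a 2CG site (4805 against 1026 to 2480 on the other autosomes) and without one (6982 against 644 to 1572). The both-strand share was higher in either group.

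**Figure D4:**
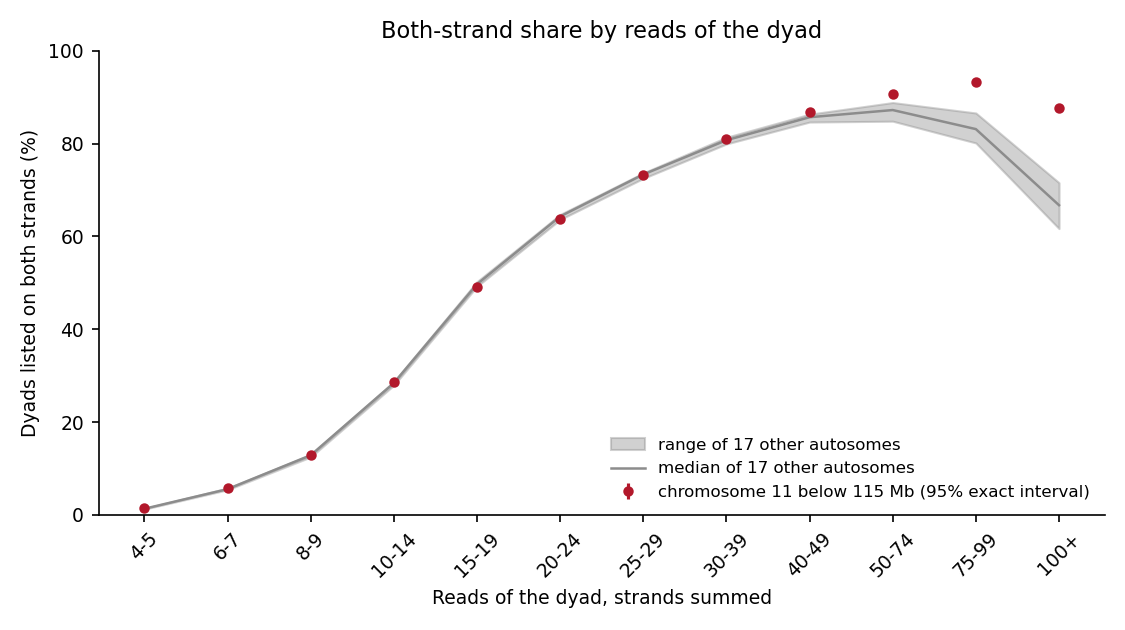
Share of CG dyads listed on both strands in percent against reads of the dyad summed over strands. Red points are the chromosome 11 region with 95% exact intervals, smaller than the points, the line is the median and the band the range of 17 other autosomes. Up to 39 reads the points lie within 0.65 points of the line, and from 40 reads they lie above the band, at 87.6% against 61.7 to 71.6% at 100 or more reads.

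Counts on the strands of a dyad were weakly related. Over dyads listed on both strands, Spearman's rho between strands was 0.28 in the region and 0.22 to 0.23 elsewhere. The strands differed by more than 3-fold in 23.6% of these dyads, against 21.4 to 22.5%. The dyads with the most reads on their less-read strand were at 72947296 with 259 reads on the plus and 272 on the minus strand, 57487526 with 168 and 216, 69592783 with 182 and 153, 86781848 with 176 and 127, and 75371863 with 123 and 134. In these 5 the strands were within 1.5-fold of each other, which the choice by the less-read strand favours.

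CH sites were more numerous in the region by length and less clearly so beside CG sites. CA made up 52.2% of them, CT 34.5% and CC 13.4%. There were 67.7 CH sites per 1000 CG sites, within the 43.9 to 83.8 of the other autosomes, 2 of which were at or above it. CH sites averaged 7.48 reads, where the other autosomes had a median of 7.95 and 10 of the 17 were at or above the region. Their range was 6.75 to 28.7, the highest on chromosome 2 and the next, 15.3, on chromosome 9. The median CH site had 5 reads on chromosome 2 and 6 on chromosome 9, so these means were set by sites well above the median. At matched CG sites the median ratio of CH sites was 1.37, above the 0.730 on chromosome 10 to 1.23 on chromosome 17 of the others. It was above 1 in 97 windows and below in 13. Yet 7 of 111 windows (6.31%) were at or above 95% of their matches, where 5.78% of windows elsewhere were, so single windows seldom stood out.

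Beside CG sites, the higher number was mostly of CH sites with few reads. With the minimum raised to 10 reads for CG and CH sites alike, and windows matched on the CG sites left, the ratio was 0.859. This minimum kept a larger share of CG sites in the region than elsewhere. The matched windows therefore changed too, and 0.859 does not isolate the reads of CH sites. By length, CH sites of 10 reads or more were also denser, with 105 per Mb against 40.6 to 90.3. Per 1000 CG sites the region had 54.4 CH sites under 10 reads, with 2 of the 17 autosomes at or above that, and 13.3 of 10 reads or more, with 8 at or above. CH sites of at least 10 reads were 19.6% of its CH sites, while CG sites of at least 10 reads were 61.1% of its CG sites. On the other autosomes these were 17.7 to 25.6% and 47.4 to 52.4%. CH sites under 10 reads lay a median of 56 bp from the nearest listed CG site and those of 10 or more 44 bp.

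The CH excess did not run with that of CG reads. Over the 111 windows, the ratio for CH sites and the ratio for reads per CG site had a rho of 0.02, where the ratios for reads per CG site and the both-strand share had 0.76 and those for CG and 2CG reads 0.60. In 5 Mb steps CH sites ran from 235 per Mb at 25 to 30 Mb to 1200 per Mb at 85 to 90 Mb, with a ratio of 2.54 there and 2.40 at 55 to 60 Mb. The other steps with a ratio lay between 0.962 at 30 to 35 Mb and 1.75 at 40 to 45 Mb. At 1 Mb the count ran from 131 at 15 to 16 Mb through 514 to 2370 at 88 to 89 Mb. The 2 windows above every match were 57 to 58 Mb, with 1833 CH sites against 407, and 88 to 89 Mb, with 2370 against 562.5.

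These windows belonged to runs rich in CH sites. By a rule set after the profile had been seen, a run was at least 10 neighbouring 100 kb windows with 100 or more CH sites per 1000 CG sites. Each window of a run also had to hold at least 100 CG sites, so sparser windows could not be part of one. There were 3 such runs, from 17500001 to 18800000, from 56800001 to 59000000 and from 87600001 to 90000000. The longest, of 24 windows, held 4457 CH sites, or 181 per 1000 CG sites, with 66.1 in its flanks of the same length. A ratio above the flanks is fixed by the rule. The run from 56800001 had 22 windows, 3311 CH sites and 174 per 1000 against 64.4 in its flanks. The run from 17500001 had 13 windows, 783 CH sites and 244 per 1000 against 62.4.

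CH sites in the runs also had more reads. Over the 3 runs they averaged 11.4 reads, and 40.3% had at least 10. In the region outside runs of either kind the values were 7.42 reads and 19.5%. The rule counts listed CH sites, and listing needs reads, so it may favour windows with better-read CH sites. CG sites averaged 17.2 reads over the 3 runs and 16.95 outside, but the runs differed from each other in this. The run from 17500001 averaged 12.2 reads per CG site against 16.0 in its flanks, that from 56800001 16.5 against 17.8, and that from 87600001 18.5 against 15.3. CG reads were thus below the flanks in 2 runs and above them in the longest. Runs and flanks were not matched on CG sites, with which reads per CG site rise. The run from 17500001 held 3212 CG sites in 13 windows, that from 56800001 18992 in 22, and the longest 24580 in 24. CA was 51.4% of CH sites in the runs and 52.1% outside. The runs covered 5.27% of the region's 100 kb windows, within the 0 to 11.6% of the other autosomes.

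Runs of the opposite kind were also set by a rule, with the same minimum of 100 CG sites in each window. With at most 10 CH sites of 10 or more reads per 1000 CG sites in each of at least 10 neighbouring windows, 11 runs were found, covering 24.2% of the region's 100 kb windows against 8.68 to 42.8% elsewhere. The longest went from 76900001 to 82600000, followed by 31000001 to 35700000 and 49400001 to 53900000. The first of these had 56708 CG sites and 2561 CH sites, of which 5.27% had at least 10 reads, where its flanks had 25.3%. The few well-read CH sites in these runs follow from the rule. CG sites, which the rule did not limit by reads, averaged 17.4 reads over the 11 runs.

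**Figure D5:**
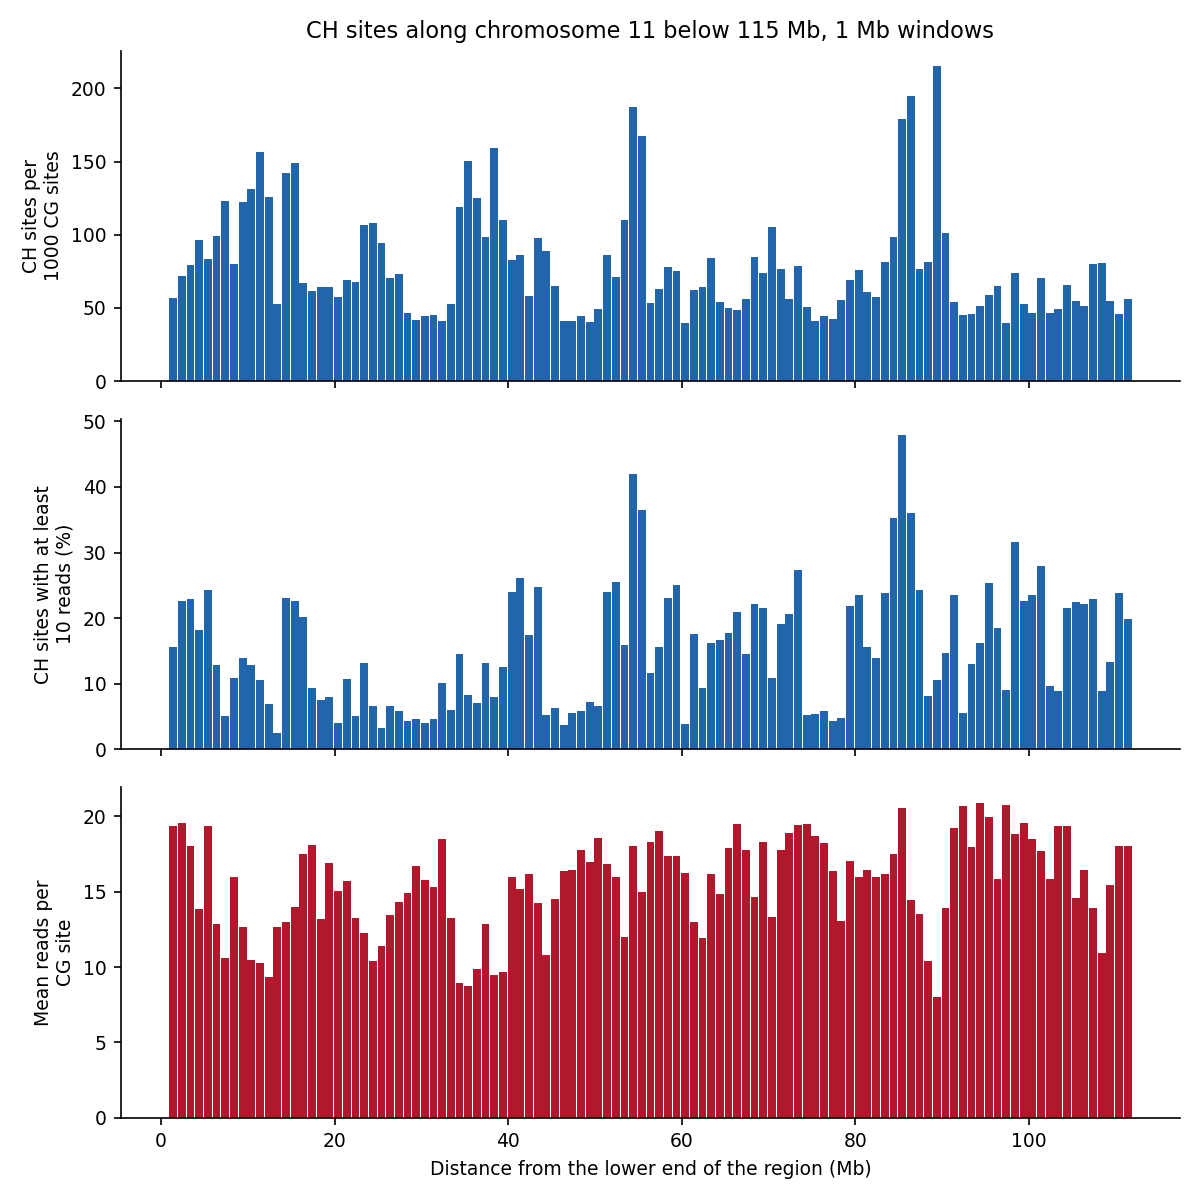
CH sites per 1000 CG sites (top), share of CH sites with at least 10 reads in percent (middle) and mean reads per CG site (bottom) in 1 Mb windows, against distance from the lower end of the region in Mb. The windows at 57, 58, 88 and 89 Mb of the chromosome are high in the top and middle panels, while the tallest bar of the top panel, 215 at 92 Mb, belongs to a sparse window where 10.6% of CH sites had at least 10 reads.

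The cytosine with the most reads in the region was a CH site. It lay on the minus strand at 53953668, in a CT context and class 1CH, with 1104 reads, and the next CH site of its 1 Mb window had 202. Without it, the mean of that window fell from 7.29 to 5.38 reads per CH site, so that 1 of 575 sites set much of that value. The next were CG sites in close pairs on opposite strands. A plus-strand site at 51643992 with 725 reads, class 2CG, faced a minus-strand site at 51644014 with 726, class CGCH. The pair at 74197755 and 74197778, both of class 2CG, had 617 reads each.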

How the data were processed

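The submitters' processing notes name CASAVA 1.8.2, Bowtie and the build mm9; other steps are not given there. The authors deposited 1 whole-number read count per listed cytosine, not normalized, with context, strand and class. The 2 libraries are not kept apart, and nothing says whether they came from separate cultures.

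All sites were kept and positions made 1-based. A dyad joined a plus-strand C to a minus-strand C 1 base to its right. Complete 1 Mb windows were divided by the median of windows with CG sites within 10% (at least 5) on the autosomes other than 8 and 11. Alternatives changed read minimum, window size, matching and comparison chromosomes. Named were the extreme 5 Mb steps (3), 1 Mb and 100 kb windows, sites and dyads (5 each). Members and lists were chosen with earlier results of these data known. The CH runs, and 5 alternatives, were chosen after seeing the data. Intervals are exact (Clopper-Pearson) and cover counting error only, since PCR reads are not independent molecules. The functions were tested on simulated sites. Python 3.11.15, numpy 2.4.6, pandas 2.3.3, scipy 1.17.1 and matplotlib 3.10.9 were used. No genome or annotation of mm9 was used here, so regions carry no gene names or sequences.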

Additional observations from a re-analysis of the deposited data

How the results depend on the processing

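No paired analysis was possible because the table pools both libraries, and for the same reason no library could be left out. Of 45 alternatives, 18 moved a ratio by less than 1 SD over the 17 autosomes, 25 by more, and 2 reversed it. Both reversals are described with the results: CH sites with a minimum of 10 reads for CG and CH sites alike, which also changed the matching (0.859), and the both-strand share with CG sites and reads per CG site matched within 5% (0.989). The cause was not tested. With sites of at least 5 reads the ratio was 1.16 for reads per CG site, 1.17 for CH sites and 1.04 for the share matched on reads too. At 10 reads it was 1.12 for reads per CG site, 1.24 for 2CG reads and 1.22 for the both-strand share. Without the top 0.1% of sites it was 1.18 for CG and 1.22 for 2CG reads, and with medians in place of means 1.14 and 1.24. Windows of 5 Mb gave 1.21 for CG reads, 1.30 for 2CG reads and 1.22 for CH sites, and windows of 100 kb 1.17, 1.26 and 1.53. Matching on dyads gave 1.19 for CG reads, 1.30 for 2CG reads and 1.19 for the share. Comparison at the same rank of CG sites, which does not equalise density, gave 1.36, 1.45, 2.21 for CH sites and 1.43 for the share. At the same rank the ratio of CG sites themselves was 2.01. Windows of at least 3000 CG sites, an alternative chosen after seeing the data, gave 1.21 for CG and 1.31 for 2CG reads. The listing minimum limits what can be said of weak sites: a CH or CG site below it is not in the table.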
